A study of Mus musculus with 6 samples.

Results

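Zic1, Zic2, Zic4 and Zic5, which encode zinc finger transcription factors of the Zic family (zinc finger protein of the cerebellum), were examined in mouse embryos that lack Tmem216. The members are the rows of the authors' table of TPM values whose gene name is one of these 4 symbols. All 4 were found among 56359 rows, and all 4 were among the 16411 genes that reached 1 TPM in 3 or more samples of the 6 and so were tested. TPM is a length-scaled share of all transcripts, and it does not show how many reads stand behind a value. RNA had been sequenced from embryos of the C57BL/6 strain at embryonic day 12, with 3 wild type and 3 Tmem216-/- samples. The labels give the source only as embryo, and they describe neither the Tmem216 allele nor the part of the embryo used, nor whether a sample is 1 embryo or a pool. The p-values therefore reflect only how far these samples spread, and part of that spread may be technical.

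Zic proteins bind DNA and other proteins through tandem C2H2 zinc fingers that are related to those of the Gli factors, the transcription factors of Hedgehog signalling. In the vertebrate embryo Zic genes mark the neural plate border and later the dorsal neural tube, the roof of the brain, the developing cerebellum, neural crest and parts of the somites and meninges. Loss of Zic1 and Zic4 is known from malformation of the cerebellum, and reduced Zic2 from holoprosencephaly, a failure to divide the forebrain. Tmem216 encodes a membrane protein at the base of the primary cilium, the organelle through which Hedgehog signals are read.

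The members lie in the genome as neighbouring pairs on opposite strands (mm10). Zic1 (ENSMUSG00000032368, minus strand, chromosome 9, 91358058 to 91365810) and Zic4 (ENSMUSG00000036972, plus strand, 91362413 to 91389348) overlap by 3398 bases because a Zic4 transcript starts inside Zic1. Only 60 bases are exonic in both, which is 1.05% of the Zic1 exons and 0.581% of the Zic4 exons. Zic5 (ENSMUSG00000041703, minus strand, chromosome 14, 122456795 to 122465677) and Zic2 (ENSMUSG00000061524, plus strand, 122475435 to 122479852) are separated by 9757 bases and share no exon. The Zic4 transcript whose sequence is used below starts beyond the end of Zic1 at 91365810, so the overlap comes from another Zic4 transcript. Whether reads were counted by strand is not given in the sources used here. It is therefore unknown whether reads from the 60 shared bases were told apart.

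The coding sequences show how alike the members are, which matters for assigning reads to each of them. The transcripts whose length equals the one listed in the deposited table code for 447 residues (Zic1), 529 (Zic2), 341 (Zic4) and 622 (Zic5). A search of their translation for the spacing of a standard C2H2 finger found 3 finger stretches in each member. Fingers with another spacing would be missed, so 3 is not a count of all fingers. Here and below, first means the first stretch found by this search. The first of these finger stretches is given here as coding sequence, 5′ to 3′, from GENCODE M21 transcripts (mm10), with the codons of the 2 cysteines and 2 histidines that hold the zinc in capitals. It is shown because it encodes the same 23 residues in all 4 members, while the bases differ at 7 to 19 of 69 positions between pairs.
Zic1, chr9:91364040-91364108, minus strand, exon 2: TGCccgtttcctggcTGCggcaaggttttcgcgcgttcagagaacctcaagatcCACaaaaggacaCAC
Zic2, chr14:122476675-122476743, plus strand, exon 1: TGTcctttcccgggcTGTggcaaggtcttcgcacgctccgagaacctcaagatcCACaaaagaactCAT
Zic4, chr9:91379330-91379398, plus strand, exon 1: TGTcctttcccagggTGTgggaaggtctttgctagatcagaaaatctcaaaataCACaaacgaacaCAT
Zic5, chr14:122463896-122463964, minus strand, exon 1: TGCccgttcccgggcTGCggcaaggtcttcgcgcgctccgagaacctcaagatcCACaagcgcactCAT

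The next finger differed in its residues between most pairs, although its bases were more alike than those of the first finger in some pairs and less alike in others. Zic1 and Zic2 encode the same residues there with 6 of 69 bases different (91.3% identical, against 82.6% in the first finger). Zic4 differs from Zic1 by 2 residues and 9 bases (87.0%, against 72.5%), and Zic5 differs from Zic1 by 3 residues and 21 bases (69.6%, against 85.5%). The coding sequence of this finger shows where the members part, again with the zinc-binding codons in capitals.
Zic1, chr9:91362537-91362605, minus strand, exon 3: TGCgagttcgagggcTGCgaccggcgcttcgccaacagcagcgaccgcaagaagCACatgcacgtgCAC
Zic2, chr14:122478557-122478625, plus strand, exon 2: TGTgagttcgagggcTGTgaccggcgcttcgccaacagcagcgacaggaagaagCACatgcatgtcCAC
Zic4, chr9:91384031-91384099, plus strand, exon 2: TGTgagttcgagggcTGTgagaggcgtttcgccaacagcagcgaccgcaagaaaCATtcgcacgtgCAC
Zic5, chr14:122459690-122459758, minus strand, exon 2: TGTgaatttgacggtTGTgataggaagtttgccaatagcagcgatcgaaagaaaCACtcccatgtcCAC

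The longest stretch of identical bases between any pair of these transcripts was 42 bases, between Zic1 and Zic4. It lies in the coding sequence upstream of the finger stretches printed above. The search would miss a finger of another spacing there, so the run need not lie outside the zinc finger region. For the other pairs the longest identical run was 20 to 35 bases. The read length is not given in the sources used here, so how many reads could fit more than 1 member is unknown.
Zic1 and Zic4 shared run, chr9:91364248-91364289 in Zic1 and chr9:91379149-91379190 in Zic4: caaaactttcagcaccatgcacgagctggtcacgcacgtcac

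All 4 members were expressed in every sample, and their order was the same in all 6. Zic1 was highest, followed by Zic2, Zic4 and Zic5. TPM is scaled by length, so levels can be set side by side between genes, but only roughly. The deposited table lists 1 length per gene, 2811 bases for Zic1 and 3891 for Zic4. All annotated exons cover 5693 and 10335 bases of these genes. How far the transcript assumed moves the levels was not tested. Summed over the 4 members the level was 159, 132 and 178 TPM in wild type replicates 1, 2 and 3 and 150, 140 and 137 TPM in Tmem216-/- replicates 1, 2 and 3, and the groups overlapped. Zic1 made up 55.8 ± 1.53% of this sum in wild type and 55.4 ± 0.945% in Tmem216-/- (mean ± SD, n = 3 each). The share of Zic2 was 22.8 ± 1.93% and 24.4 ± 3.04%, that of Zic4 16.9 ± 2.56% and 15.0 ± 2.10%, and that of Zic5 4.53 ± 0.775% and 5.19 ± 0.857%. Zic1 was 2.01 to 2.67 times Zic2 within a sample, and Zic4 was 2.25 to 3.85 times Zic5. Zic2 and Zic4 were the closest neighbours in this order: Zic2 was 1.05 times Zic4 in wild type replicate 2 and 2.15 times Zic4 in Tmem216-/- replicate 2. Across all 6 samples the lowest Zic2 value (27.1 TPM) lay only just above the highest Zic4 value (26.4 TPM).

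The samples differed in the levels of tissue marker genes, and this may bear on every comparison. Tmem216 was 31.0, 30.7 and 17.4 TPM in the wild type samples, against 2.25, 0.51 and 1.39 TPM in Tmem216-/-, so each library matched its label (limma adjusted p = 0.0266). The 12 heart muscle markers summed to 40.7 to 63.2 TPM in wild type, against 881 to 2321 TPM in Tmem216-/-. All 12 passed the limma test between genotypes as higher, where 17 of all 16411 tested genes (0.104%) passed. The marker lists were chosen with earlier results of these data known. The 10 skeletal muscle markers, of which 0 passed, summed to 233 to 430.0 and 696 to 814 TPM, and Actc1, which heart muscle also expresses, made up much of this sum. Without Actc1 the other 9 summed to 140 to 251 and 197 to 295 TPM, and the groups overlapped. The 9 erythroid markers, of which 0 passed, summed to 35040 to 38530 and 26550 to 53170 TPM. The 10 fetal liver markers summed to 2210, 2695 and 87.3 TPM in the wild type samples, against 1109, 69.2 and 70.0 TPM in Tmem216-/-, so wild type replicate 3 and Tmem216-/- replicates 2 and 3 stood apart with little liver RNA. The 12 caudal Hox genes, of which 0 passed, summed to 122 to 270 TPM in wild type, against 75.9 to 140 TPM in Tmem216-/-. These sums overlapped. Of the 12 genes 11 were lower and 1, Hoxb9, was higher (log2 fold change 0.27). In 3 the groups did not overlap, all lower, beside 4.83% of all tested genes. Hoxc10 was at 0 in 1 and Hoxc11 at 0 in 2 Tmem216-/- samples. The 16 pan-neural genes (Sox1, Sox2, Tubb3, Dcx and others) summed to 2316, 1824 and 2993 TPM and to 2177, 2570 and 2327 TPM in the same order, and none was at 0. The pan-neural sum was lowest in wild type replicate 2 and highest in wild type replicate 3. Its largest member, Tubb3, was 775, 470 and 1227 TPM in wild type replicates 1, 2 and 3. The genes of the list did not all move alike: Fabp7 and Elavl4 were lowest of all 6 samples in wild type replicate 3. Apart from a fit with liver content as a term, given with Zic4, the part of these differences in the Zic values was not tested. In such bulk samples fewer cells that express a gene and less RNA per cell cannot be told apart.

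None of the 4 members passed the test between genotypes. The test was limma on log2(TPM + 1) over all 16411 genes, with p-values adjusted by the Benjamini-Hochberg method and called at an adjusted p under 0.05. It called 17 genes, which is 0.104% of those tested, and 0 of the 4 Zic genes. With liver content as a term it called 5 genes, 3 higher and 2 lower, so most of the 12 heart muscle markers did not pass there. That term marks wild type replicates 1 and 2 and Tmem216-/- replicate 1, so it is split unevenly between genotypes. It also leaves less to estimate the spread from, and why fewer genes passed was not tested. At an unadjusted p under 0.05 limma held 809 genes with the term and 732 without it. Without the term this was 4.46% of all genes and again 0 of the 4. The groups did not overlap in 1 of the 4 members, Zic4, which lay lower in Tmem216-/-. Across all tested genes 4.83% were lower without overlap and 4.75% were higher without overlap, and a count of 1 among 4 members is not a result about these genes as a group.

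**Figure D1:**
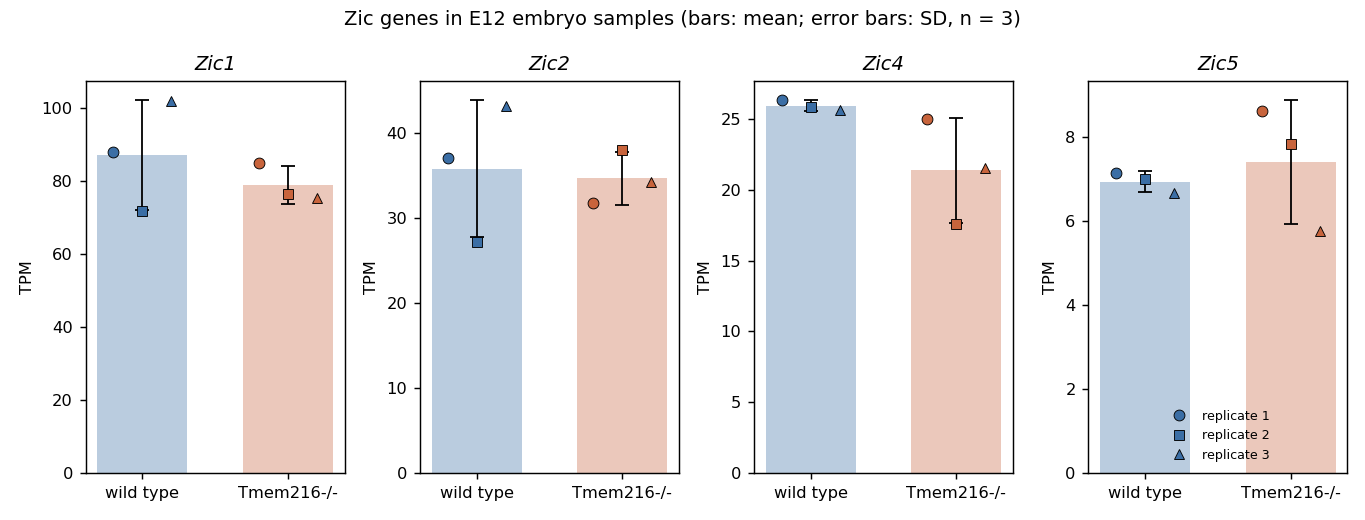
TPM of Zic1, Zic2, Zic4 and Zic5 (y axis, linear from 0) in wild type and Tmem216-/- samples (x axis); bars are means, error bars SD (n = 3) and symbols mark replicates 1, 2 and 3. Only for Zic4 do all 3 Tmem216-/- values (17.6 to 25.0 TPM) lie under all 3 wild type values (25.7 to 26.4 TPM).

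Zic1, the best studied member in the cerebellum and dorsal spinal cord, was 88.1, 71.9 and 102 TPM in the wild type samples, against 84.9, 76.4 and 75.5 TPM in Tmem216-/- (replicates 1, 2 and 3). The highest and the lowest of the 6 values were both wild type, and all 3 Tmem216-/- values lay between them. The means were 87.3 ± 15.1 and 79.0 ± 5.18 TPM (SD, n = 3), a log2 fold change of -0.13 (SE 0.14, limma adjusted p = 0.983; exact two-sided permutation p = 0.6). The 95% interval of the log2 fold change ran from -0.46 to 0.20, which on the scale of TPM + 1 is 27.3% lower to 14.8% higher. The size rested on wild type replicates 2 and 3: the log2 fold change was -0.26 without replicate 2 and -0.01 without replicate 3. Among the 16411 tested genes 88.6% had a lower mean level than Zic1.

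Zic2, a regulator of forebrain midline and of axon crossing in the eye and spinal cord, was 37.1, 27.1 and 43.2 TPM in the wild type samples, against 31.8, 38.0 and 34.2 TPM in Tmem216-/-. Again the wild type samples held both extremes, replicate 2 the lowest and replicate 3 the highest. The means were 35.8 ± 8.10 and 34.6 ± 3.13 TPM, a log2 fold change of -0.03 (SE 0.18, limma adjusted p = 0.995; exact permutation p = 1.0). Its 95% interval, -0.45 to 0.40, covers a level 26.8% lower to 31.9% higher. The sign was not stable: the log2 fold change was 0.01 without wild type replicate 1, 0.12 without wild type replicate 3 and 0.03 without Tmem216-/- replicate 1.

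Zic4, the neighbour of Zic1 and with it a gene of the dorsal neural tube and cerebellum, was 26.4, 25.9 and 25.7 TPM in the wild type samples, against 25.0, 17.6 and 21.6 TPM in Tmem216-/-. The wild type values were nearly level, while those of Tmem216-/- spread downward, and replicate 1 of that group was only just under the lowest wild type value. The means were 26.0 ± 0.378 and 21.4 ± 3.70 TPM, so that the Tmem216-/- mean was 0.824 times the wild type mean (log2 fold change -0.28, SE 0.14, limma adjusted p = 0.983, unadjusted p = 0.0865). A two-sided exact permutation test gave p = 0.1, and 3 against 3 samples cannot give less. The 95% interval of the log2 fold change, -0.62 to 0.05, ran from 34.7% lower to 3.75% higher. It was -0.40 without Tmem216-/- replicate 1 and -0.15 without Tmem216-/- replicate 2, and stayed negative whichever sample was left out, although the direction of groups that do not overlap cannot turn. Set beside the liver content, the 2 liver-rich wild type samples had 26.4 and 25.9 TPM and the liver-rich Tmem216-/- sample 25.0 TPM. Among the samples with little liver RNA, wild type replicate 3 had 25.7 TPM and Tmem216-/- replicates 2 and 3 had 17.6 and 21.6 TPM. With this liver content as a term in the limma fit, an alternative added after the values were seen, the log2 fold change of Zic4 was -0.22 (SE 0.14, adjusted p = 0.807).

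Zic5, the least abundant member and the neighbour of Zic2, acts in neural crest formation and neural tube closure. It was 7.16, 7.01 and 6.67 TPM in the wild type samples, against 8.64, 7.84 and 5.76 TPM in Tmem216-/-. Here the Tmem216-/- samples held both the highest and the lowest value. The means were 6.95 ± 0.251 and 7.41 ± 1.49 TPM, a log2 fold change of 0.07 (SE 0.17, limma adjusted p = 0.983; exact permutation p = 0.8) with a 95% interval of -0.34 to 0.48, or 21.2% lower to 39.2% higher. Without Tmem216-/- replicate 1 the sign turned (-0.04).

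**Figure D2:**
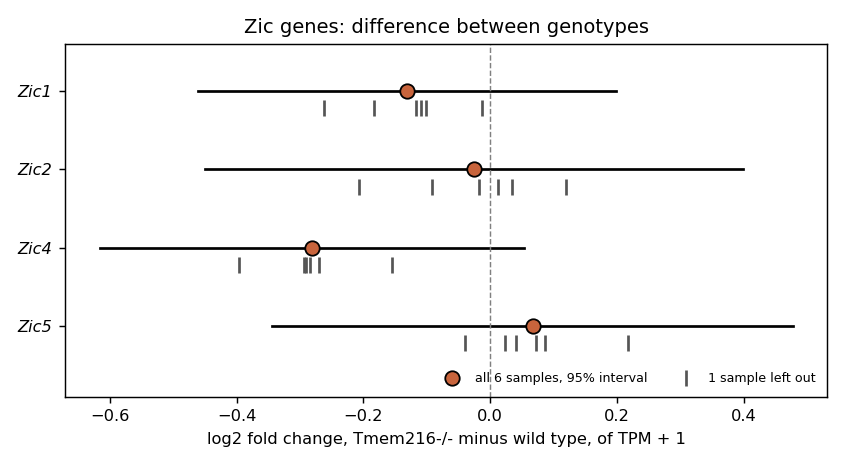
Log2 fold change of TPM + 1, Tmem216-/- minus wild type (x axis), for the 4 Zic genes (y axis); circles and lines are the value from all 6 samples with its 95% interval, and ticks are the values with 1 sample left out. Every interval includes 0, and the ticks of Zic2 and Zic5 fall on both sides of 0.

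The spread among replicates differed between members and between groups, which was not tested and rests on 3 samples each. In wild type the coefficient of variation was 17.3% for Zic1 and 22.6% for Zic2, against 1.45% for Zic4 and 3.61% for Zic5. In Tmem216-/- it was 6.55% and 9.04% for Zic1 and Zic2, against 17.3% and 20.1% for Zic4 and Zic5. The members that varied together in wild type, Zic1 and Zic2, lie on different chromosomes. Over the 6 samples the correlation of log2(TPM + 1) between Zic1 and Zic2 was r = 0.742 (exact permutation p = 0.0806, adjusted over 6 pairs 0.484; Spearman's rho 0.714, p = 0.136, adjusted 0.816). It rested on wild type replicates 2 and 3, and without these 2 samples r was -0.15. The neighbours Zic1 and Zic4 had r = 0.435 (exact permutation p = 0.408, adjusted 0.947; rho 0.257, p = 0.658, adjusted 0.919; 0.858 without the same 2 samples). For the neighbours Zic2 and Zic5 r was -0.139 (exact permutation p = 0.836, adjusted 0.947; rho -0.143, p = 0.803, adjusted 0.919; -0.148 without the same 2 samples). No pair passed the adjusted test.

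The ratio within a neighbouring pair of genes was compared next, since RNA from tissues that express neither gene lowers both alike. Zic1 was 3.34, 2.78 and 3.98 times Zic4 in wild type and 3.40, 4.34 and 3.50 times Zic4 in Tmem216-/-. On the log2(TPM + 1) scale this ratio was 1.70 ± 0.26 and 1.85 ± 0.18 (SD, n = 3), a difference of 0.15 (exact permutation p = 0.4, two-sided), and the groups overlapped. Zic2 was 5.18, 3.87 and 6.47 times Zic5 in wild type and 3.68, 4.84 and 5.93 times Zic5 in Tmem216-/-. The log2 ratio was 2.19 ± 0.36 and 2.10 ± 0.31, a difference of -0.09 (exact permutation p = 0.7), which turned to 0.08 without wild type replicate 3 and to 0.07 without Tmem216-/- replicate 1. The difference in ratio between genotypes was therefore smaller than the spread between replicates for both pairs.

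**Figure D3:**
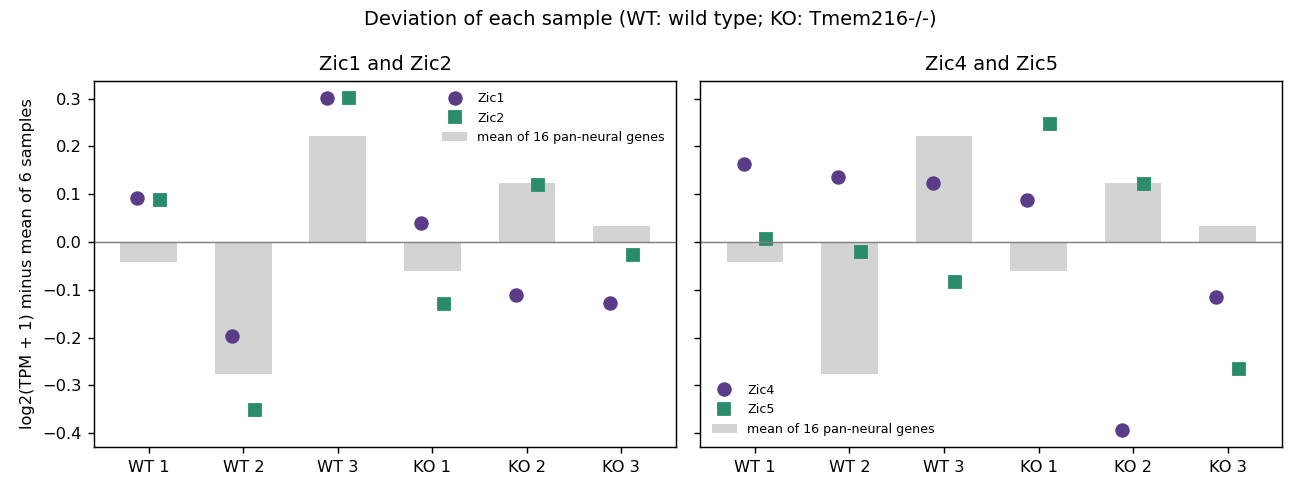
Deviation of log2(TPM + 1) from the mean of the 6 samples (y axis) for Zic1 and Zic2 (left) and Zic4 and Zic5 (right) in each sample (x axis); grey bars are the mean of 16 pan-neural genes. Zic2 and the pan-neural mean are both lowest in wild type replicate 2 (-0.35 and -0.28) and highest in wild type replicate 3 (0.30 and 0.22), while Zic4 is lowest in Tmem216-/- replicate 2 (-0.39).

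Members were next set against the mean log2(TPM + 1) of the 16 pan-neural genes in each sample, a rough guide to neural content. This mean was 6.30, 6.07 and 6.57 in wild type and 6.28, 6.47 and 6.38 in Tmem216-/-. It averaged slightly higher in Tmem216-/-, which moves every difference in relative level down by the same amount. Of the 16 genes 0 passed, and 1 had an unadjusted p under 0.05 in limma, beside 4.46% of all tested genes. That gene, Map2, was higher without overlap (log2 fold change 0.31), beside 4.75% of all tested genes. Relative to the pan-neural mean, Zic1 was nearly constant in wild type, at 0.17, 0.12 and 0.12 log2 units. Its SD was 0.03 there, against 0.25 for the level itself. In Tmem216-/- the SD of Zic1 was larger on the relative scale, 0.18 against 0.09. For Zic4 it was larger in both groups (0.26 against 0.02 in wild type, 0.33 against 0.24 in Tmem216-/-), and so it was for Zic5 (0.28 against 0.05 and 0.30 against 0.27). In Tmem216-/- the relative level of Zic1 was 0.14, -0.19 and -0.12, a mean difference of -0.20 (exact permutation p = 0.3, adjusted over the 4 members 0.533). Relative Zic2 differed by -0.09 (p = 0.4, adjusted 0.533, exact permutation) and relative Zic5 by 0.00 (p = 0.9, adjusted 0.9, exact permutation). Zic4 lay 1.53, 1.32 and 1.83 log2 units under the pan-neural mean in wild type and 1.58, 2.25 and 1.88 units under it in Tmem216-/-, a difference of -0.35 (exact permutation p = 0.2, adjusted 0.533). On this scale the Zic4 groups overlapped, because wild type replicate 3 lay under Tmem216-/- replicate 1. With the 4 members counted, 0 of 4 were separated between genotypes relative to the pan-neural genes.

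**Figure D4:**
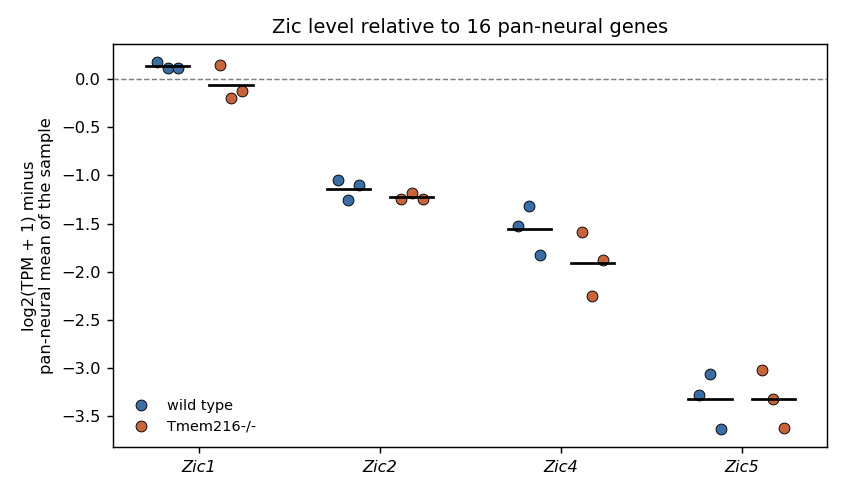
Log2(TPM + 1) of each Zic gene minus the mean of 16 pan-neural genes in the same sample (y axis); points are samples and black lines group means (n = 3). The groups overlap for all 4 genes, and the 3 wild type values of Zic1 lie together between 0.12 and 0.17.

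Zic2 followed the pan-neural mean most closely among the members. Over the 6 samples Zic2 had r = 0.942 with it (exact permutation p = 0.0139, adjusted over 4 members 0.0556; rho 0.943, p = 0.0167, adjusted 0.0668), a comparison chosen after the values were seen. Without wild type replicates 2 and 3 r was 0.613, so the relation rests mainly on these samples. For Zic1 r was 0.619 (exact permutation p = 0.181, adjusted 0.362; rho 0.543, p = 0.297, adjusted 0.559) and turned to -0.826 without the same samples. Zic4 (r = -0.401, exact permutation p = 0.394, adjusted 0.525; rho -0.429, p = 0.419, adjusted 0.559; -0.976 without the same samples) did not follow it upward. Zic5 did not either (r = -0.145, exact permutation p = 0.817, adjusted 0.817; rho -0.314, p = 0.564, adjusted 0.564; -0.192 without the same samples).

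Of the genes around both pairs 0 passed the test between genotypes. Within 1 Mb of Zic1 and Zic4 lay 5 other tested genes, with log2 fold changes of -0.34 to 0.36 (limma, lowest adjusted p = 0.983, 0 at an unadjusted p under 0.05). The nearest downstream of Zic4 was the non-coding RNA gene Gm29478 (91404474 to 91562818, plus strand), at 2.37, 2.05 and 0.90 TPM in the wild type samples, against 3.68, 1.85 and 2.07 TPM in Tmem216-/-. Plscr1, a phospholipid scramblase gene and the only protein-coding one of the 5, was at -0.04. Around Zic2 and Zic5 lay 14 other tested genes, 9 higher and 5 lower, from -0.46 to 0.20 (limma, lowest adjusted p = 0.983, 0 at an unadjusted p under 0.05). Of these 14, Pcca (0.15), which encodes a subunit of propionyl-CoA carboxylase, and Nalcn (0.20), which encodes a sodium leak channel, were higher without overlap. The share higher without overlap among all tested genes was 4.75%. The non-coding gene 2610035F20Rik (chromosome 14, 122470284 to 122475199, minus strand) lies between Zic5 and Zic2 and was 8.33, 6.75 and 10.4 TPM in the wild type samples, against 6.48, 6.74 and 8.34 TPM in Tmem216-/-. Like Zic2 it was lowest in wild type replicate 2 and highest in wild type replicate 3 among the wild type samples. Its log2 fold change was -0.20 (SE 0.19, limma adjusted p = 0.983), and the groups overlapped.

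RefSeq promoter windows (GRCm38.p6) matched 3 of the 4 members, Zic1, Zic4 and Zic5, and the 250 bases before the start were examined. The G and C content was 66.0% for Zic1 and 62.4% for Zic5 but 44.4% for Zic4, against a median of 52.4% over 32851 promoters. Neither the Gli site GACCACCCA nor the core CAGCAGG of Zic binding was found on either strand of these 3 windows. They occur in 0.225% and 8.44% of all promoter windows of this length.

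The Gli and Glis genes encode zinc finger proteins related to the Zic proteins. Gli1, a readout of Hedgehog signalling, was 17.5, 16.2 and 19.8 TPM in the wild type samples, against 11.7, 13.3 and 10.6 TPM in Tmem216-/- (log2 fold change -0.55, limma adjusted p = 0.593). Glis3 was at 0.30 and Glis2 at -0.23. Of the 6 relatives 0 passed, 1 had an unadjusted p under 0.05, and 3 had groups that did not overlap (1 lower, 2 higher). Over all tested genes the shares were 4.46% at an unadjusted p under 0.05, 4.83% lower without overlap and 4.75% higher without overlap. Their median log2 fold change was -0.15, against -0.01 over all genes tested. Zic4 at -0.28 lies within the range of these relatives.

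Other genes of the places where Zic genes are expressed did not pass in limma in any list. For comparison, 4.46% of all tested genes had an unadjusted p under 0.05 in limma. Of all tested genes 4.83% were lower and 4.75% higher without overlap, and their median log2 fold change was -0.01. In the roof plate and dorsal midline list 0 of 16 passed and 1 had an unadjusted p under 0.05, with 12 higher and 4 lower and a median of 0.10. Bmp4, a dorsalizing signal, was 24.0, 20.1 and 26.9 TPM in the wild type samples, against 42.6, 38.3 and 35.1 TPM in Tmem216-/- (log2 fold change 0.69, limma adjusted p = 0.310), with groups that did not overlap, while Wnt3a, a roof plate signal, was at -0.38 and Lmx1a, a roof plate factor, at 0.46. In the dorsal progenitor and interneuron list 0 of 17 passed, 2 had an unadjusted p under 0.05, 14 were higher, and the median was 0.18. Lhx2 was at -0.47, Barhl2 at 0.46 and Pax7 at 0.37 there. The cerebellum and midbrain-hindbrain list had 0 of 16 passing and 2 at an unadjusted p under 0.05, with 10 higher and 6 lower and a median of 0.06. Pax8 was 11.1, 10.4 and 13.2 TPM in the wild type samples, against 7.44, 5.15 and 4.81 TPM in Tmem216-/- (-0.90, limma adjusted p = 0.382). Otx2, a forebrain and midbrain factor, was higher without overlap (0.55, limma adjusted p = 0.983), and Fgf8, a signal of the midbrain-hindbrain boundary, was at -0.47. In the neural crest list 0 of 15 passed, 1 had an unadjusted p under 0.05 and the median was -0.12. In the list of somite, sclerotome and meninges genes 0 of 12 tested passed, 1 had an unadjusted p under 0.05 and the median was 0.01.

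The dorsal forebrain midline list was the one with the largest median difference among the neural lists, at -0.45 over 13 genes. Of these, 0 passed, 7 had an unadjusted p under 0.05 in limma, and 6 were lower and 2 higher without overlap, beside 4.46%, 4.83% and 4.75% of all tested genes. Emx1, a dorsal telencephalon factor, was at -1.93 (adjusted p = 0.203). Dmrt3, a transcription factor gene of the same list, was at -1.18. The holoprosencephaly list, which holds genes linked to the same malformation as Zic2, had 0 of 13 tested genes passing, 0 at an unadjusted p under 0.05 and a median of -0.08. Its leading gene by p was Fgf8, at 5.01, 6.37 and 5.60 TPM in the wild type samples, against 2.93, 5.02 and 3.63 TPM in Tmem216-/- (-0.47). In the ventral neural list 0 of 18 tested passed, 2 had an unadjusted p under 0.05, 6 were higher and 12 lower, and the median was -0.07. There Dbx1, an interneuron progenitor factor, was 20.0, 16.7 and 30.3 TPM in the wild type samples, against 36.0, 48.2 and 50.3 TPM in Tmem216-/- (1.00, limma adjusted p = 0.548). Lhx3, a motor neuron and interneuron factor, was lower without overlap (-0.72, limma adjusted p = 0.983), and Mnx1, a motor neuron factor, was at -0.59.

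The genes whose pattern over the 6 samples was most like each member were found by the root mean square difference of log2(TPM + 1), each gene centred on its own mean, among 13676 named genes. For Zic1 they included Sh3rf1 (0.0187), Itpkb (0.0209), Polr3a (0.0232) and Rph3al (0.0272), against a median difference of 0.218 over all genes compared. For Zic2 they were Cby1 (0.0257), Arel1 (0.0266), Dbnl (0.0324), Ypel1 (0.0331) and Brf2 (0.0345). For Zic4 they were Epb41l4aos (0.0295), Ifi30 (0.0318), Adck5 (0.0423), Stk10 (0.0439) and Prdm11 (0.0472). For Zic5 they were H6pd (0.0339), Pik3ap1 (0.0559), Tmtc1 (0.0560), Slc19a2 (0.0586) and Zfp346 (0.0631). These genes are by selection the nearest of 13676, so most other genes must lie farther away. Among the genes ordered by likeness to Zic1, Zic2 stood at rank 3343 (0.139), Zic4 at rank 5967 (0.196) and Zic5 at rank 7098 (0.224). By likeness to Zic2, Zic1 stood at rank 1857, and the median difference there was 0.248. Zic1 and Zic2 were thus more alike than the median gene. Zic2 differed by more than that median from Zic4 (0.315) and Zic5 (0.277). With 6 samples many genes share such a pattern, and no member was among the genes most like another.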

How the data were processed

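RNA levels were measured by RNA sequencing in 6 mouse embryo samples. The submitters' processing notes name CASAVA 1.8, HISAT2, StringTie, RSEM and the mm10 build, without giving each tool's role or settings. The authors deposited TPM per gene. The reads behind a value are unknown and no count model was used. Of 55536 Ensembl identifiers 55450 matched GENCODE M21, which gave the coordinates. The 2 deposited columns of group means were not used. Members and gene lists were chosen with earlier results of these data known.

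Genes reaching 1 TPM in 3 or more samples were tested as log2(TPM + 1) with limma 3.58.1 (R 4.3.3; lmFit, eBayes with a trend, two-sided, Benjamini-Hochberg over all tested genes), checked on simulated data. Permutation tests used scipy 1.17.1. Genes named are the members, Tmem216, up to 3 genes of each list by p, the 5 genes most like each member, and neighbours. A few of the genes chosen in this way are not reported here. Alternatives were pseudocounts 0.1 and 5, no filter (30598 genes above 0), a 5 TPM filter, median-of-ratios and quantile scaling, no trend, a replicate block and each sample left out. A fit with liver content as a term (fetal liver markers summing to 1000 TPM or more, or not) was added after the data were seen.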

Additional observations from a re-analysis of the deposited data

How the results depend on the processing

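No member passed at an adjusted p under 0.05 in any of the 15 alternatives to the limma fit; the lowest adjusted p was 0.428 for Zic1, 0.494 for Zic2, 0.482 for Zic4 and 0.827 for Zic5. With 1 sample left out the log2 fold change ran from -0.26 to -0.01 for Zic1, -0.21 to 0.12 for Zic2, -0.40 to -0.15 for Zic4 and -0.039 to 0.22 for Zic5. The other alternatives kept every sign. The Zic2 to Zic5 log2 ratio difference ran from -0.28 to 0.078 with 1 sample left out, and that of Zic1 to Zic4 from 0.02 to 0.28. Relative to the pan-neural genes, Zic5 ran from -0.15 to 0.15 with 1 sample left out and was -0.0090 with a pseudocount of 5 and -0.013 with quantile normalization; the cause was not tested. The count of all genes called was 17, 0 without a filter (1207 at an unadjusted p under 0.05, 30598 genes tested) and 0 to 27 with 1 sample left out. With liver content as a term, added after the data were seen, 5 genes were called, and the log2 fold change was -0.16 for Zic1, -0.13 for Zic2, -0.22 for Zic4 and 0.13 for Zic5. The deviations of same-numbered samples had correlations of 0.0161, -0.0934 and 0.101, against -0.147 to 0.142 for differently numbered ones. With 3 samples per group this cannot show whether the numbers pair the samples. With the replicate block in limma 25 genes were called and Zic4 was at -0.28 (adjusted p = 0.999). The number of samples and the unknown depth limit what can be detected.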
